A study of Homo sapiens with 18 samples.

Results

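The genes described here are the transcription factors that drive epithelial-mesenchymal transition (EMT): ZEB1, ZEB2, SNAI1, SNAI2, TWIST1 and TWIST2, with their E-protein partner TCF4 and the homeobox factor PRRX1. They were chosen by name as known EMT factors, and all 8 were found among the 63677 genes of the count table. TCF4 here is the E-protein also called E2-2, not the Wnt effector TCF7L2. Of the 8, 7 were tested. TWIST2 had 0 counts in all 18 libraries and did not enter the tests. A floor of 3 counts in a library, which covers counting error only, is 0.114 to 0.224 CPM (counts scaled to library size), so TWIST2 was not detectable above that level at this depth.

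Poly(A)-selected RNA came from WM989, an established human melanoma line, treated for 7 days with DMSO, the solvent, or with EPZ5676 at 4 µM, which inhibits DOT1L, the enzyme that methylates histone H3 on a lysine of its core. For each treatment there were 3 libraries of unsorted (bulk) cells, 3 of cells high for NGFR and EGFR (high cells) and 3 of cells low for both (low cells). NGFR and EGFR are surface receptors that mark rare drug-tolerant melanoma cells. All groups are 1 cell line, and the labels do not say whether the replicates came from separate cultures, so the p-values measure only the spread between these samples, which may be technical.

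EMT factors are DNA-binding proteins known for silencing epithelial adhesion genes and for turning on migratory programs in embryos and carcinomas. ZEB and SNAI proteins bind E-box sequences through zinc fingers and recruit corepressors, while TWIST proteins bind E-boxes as dimers with E-proteins such as TCF4. In melanocytes and pigmented melanoma, ZEB2 and SNAI2 belong to the differentiated program, whereas ZEB1 and TWIST1 are known from dedifferentiated melanoma cells.

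To show what lies before some of these genes, the 250 bases before the most upstream start of 4 members are given from RefSeq (GRCh38.p14). ZEB1, TCF4 and PRRX1 are shown because they had the largest differences between the sorted cells under DMSO, and ZEB2 because it had the smallest. Capitals mark E-boxes, CANNTG on either strand. The promoters of 5 members matched: ZEB1 and TCF4 with several starts, ZEB2, TWIST2 and PRRX1 with 1 each. The printed windows are chr10:31318167-31318416 on the plus strand for ZEB1, chr2:144520120-144520369 on the minus strand for ZEB2, chr18:55635958-55636207 on the minus strand for TCF4 and chr1:170663881-170664130 on the plus strand for PRRX1.
ZEB1: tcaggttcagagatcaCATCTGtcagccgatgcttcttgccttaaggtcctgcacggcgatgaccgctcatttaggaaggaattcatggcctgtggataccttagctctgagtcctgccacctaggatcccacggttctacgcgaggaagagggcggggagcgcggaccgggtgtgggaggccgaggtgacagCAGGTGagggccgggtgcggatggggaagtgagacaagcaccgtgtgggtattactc
ZEB2: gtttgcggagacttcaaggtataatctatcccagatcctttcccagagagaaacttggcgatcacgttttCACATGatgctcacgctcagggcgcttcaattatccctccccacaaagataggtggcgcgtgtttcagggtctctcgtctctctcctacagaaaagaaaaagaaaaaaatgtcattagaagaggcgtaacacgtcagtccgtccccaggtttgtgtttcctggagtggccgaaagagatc
TCF4: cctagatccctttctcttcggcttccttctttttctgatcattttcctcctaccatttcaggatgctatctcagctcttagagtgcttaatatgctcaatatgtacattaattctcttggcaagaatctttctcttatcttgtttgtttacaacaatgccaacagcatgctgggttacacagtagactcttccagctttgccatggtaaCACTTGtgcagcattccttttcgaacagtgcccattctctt
PRRX1: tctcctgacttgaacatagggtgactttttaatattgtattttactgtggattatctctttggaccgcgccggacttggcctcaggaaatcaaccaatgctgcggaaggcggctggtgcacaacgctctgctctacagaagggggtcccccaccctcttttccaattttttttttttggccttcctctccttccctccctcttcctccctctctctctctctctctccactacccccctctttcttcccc
ZEB1 holds CATCTG and CAGGTG, of which CAGGTG, the E-box that ZEB and SNAI proteins are known to bind, starts 57 bases before the start shown. Of all 7 ZEB1 windows 2 hold CAGGTG, and of all 10 TCF4 windows 5 hold an E-box. Which start these cells use was not tested. The printed ZEB2 and TCF4 windows each hold 1 E-box of another sequence, and no E-box letters are in the PRRX1 window. Over all 35116 windows of the same length in the table, 61.8% hold an E-box and 17.5% hold CAGGTG on either strand, so a match is a description of these letters and not a site.

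Gene counts per library ran from 13383741 to 26311674. DMSO bulk replicate 1 stood apart from the other DMSO bulk libraries, toward the high cells, and the fits below are given with and without it. Its PRRX1 level was 2.60 times the mean of the other DMSO bulk libraries, TWIST1 2.45 times, TCF4 1.91 times, ZEB1 1.64 times, SNAI2 1.27 times and ZEB2 1.17 times, while SNAI1 was 0.777 times that mean. Reads on no feature made up 12.8% to 28.65% of a library, and 5 of the 6 libraries above 16% were EPZ5676 libraries. In this bulk RNA, fewer cells of a type and less RNA per cell cannot be told apart.

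**Figure D1:**
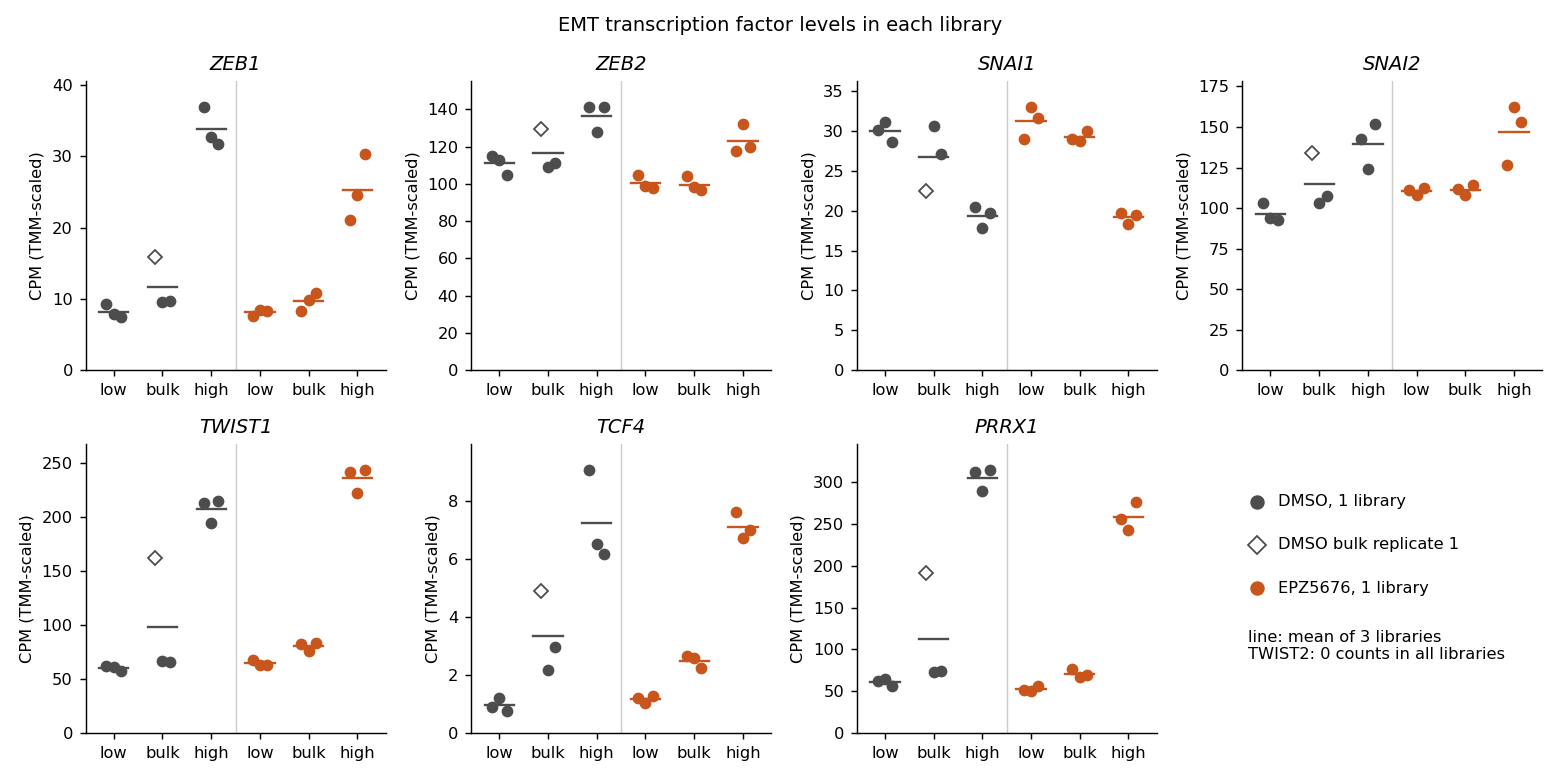
Level of each gene in each library (TMM-scaled CPM, linear axes from 0), for low, bulk and high cells under DMSO (grey) and EPZ5676 (orange); points are libraries, lines are means of 3, and the open diamond is DMSO bulk replicate 1. In both treatments the high libraries lie above the low libraries for ZEB1, ZEB2, SNAI2, TWIST1, TCF4 and PRRX1, and below them for SNAI1.

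High against low cells under DMSO asks how the factors differ between the sorted states. Of the 7 tested members, 6 were higher and 1, SNAI1, was lower in high cells, all passing an adjusted p of 0.05 (edgeR's quasi-likelihood test, Benjamini-Hochberg over all 18121 genes). Over all genes tested 56.3% were called, 29.6% higher and 26.7% lower, so a call by itself is not particular to these genes. The members' median log2 fold change was 1.78, against 0.03 over all genes. In all 7 the libraries of high and low cells did not overlap, as in 60.3% of all genes. Sizes ran from a log2 fold change of 2.93 for TCF4 to 0.30 for ZEB2, and all 7 were also called in both treatments without DMSO bulk replicate 1.

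ZEB1, a zinc-finger and homeobox repressor, had 9.23, 7.93 and 7.46 CPM in the 3 low libraries and 36.9, 32.7 and 31.7 CPM in the high libraries. All high libraries were above all low libraries, and the log2 fold change was 2.04 ± 0.17 (SE; adjusted p = 1.09e-08). ZEB2, its paralog and a factor of differentiated melanocytes, had 115, 113 and 105 CPM in low and 141, 128 and 141 CPM in high cells, higher by a log2 fold change of 0.30 ± 0.07 (adjusted p = 0.000738). The groups do not overlap for ZEB2, but the difference is small beside that of ZEB1.

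SNAI1, the zinc-finger repressor best known for binding the CDH1 promoter, had 30.1, 31.1 and 28.7 CPM in low cells and 20.5, 17.8 and 19.7 CPM in high cells. It fell by 0.63 ± 0.10 on the log2 scale (adjusted p = 7.41e-06), the only member that was lower. SNAI2, the SNAI family member of neural crest cells and melanocytes, had 103, 94.2 and 92.7 CPM in low and 143, 124 and 152 CPM in high cells, a log2 fold change of 0.53 ± 0.10 (adjusted p = 0.000105). The 2 SNAI genes thus moved in opposite directions, and the ratio of SNAI2 to SNAI1 counts within a library was 3.02 to 3.43 in low and 6.96 to 7.73 in high cells.

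TWIST1, a basic helix-loop-helix factor, had 62.3, 61.0 and 57.5 CPM in low cells and 213, 195 and 215 CPM in high cells. The log2 fold change was 1.78 ± 0.27 (adjusted p = 7.76e-05), and again every high library was above every low one. TCF4, the E-protein with which TWIST1 can dimerise, was at a low level, with 0.88, 1.21 and 0.76 CPM in low and 9.05, 6.51 and 6.17 CPM in high cells. Its log2 fold change of 2.93 ± 0.26 (adjusted p = 9.59e-09) was the largest of the members. PRRX1, a paired-type homeobox factor of mesenchyme, had 62.4, 64.5 and 56.2 CPM in low and 313, 289 and 315 CPM in high cells, a log2 fold change of 2.32 ± 0.29 (adjusted p = 1.81e-05).

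**Figure D2:**
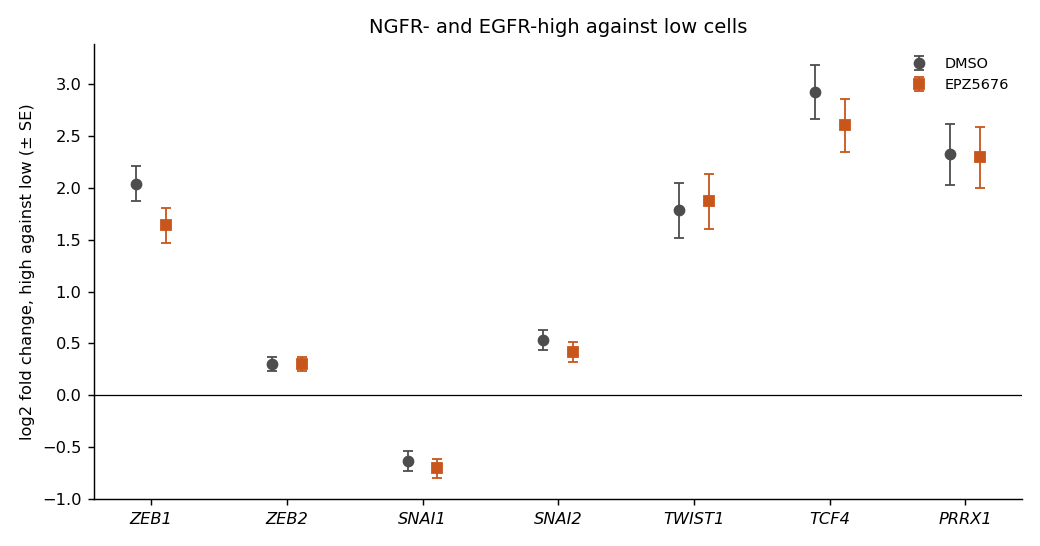
Log2 fold change of high against low cells for each tested gene (± SE), under DMSO (circles) and EPZ5676 (squares). Both treatments give the same order at the extremes, TCF4 highest at 2.93 and 2.60 and SNAI1 lowest at -0.63 and -0.71.

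Under EPZ5676 the high and low cells were compared in the same way, with 6 members higher, SNAI1 lower and all 7 called. Over all genes 48.9% were called, 25.8% higher and 23.1% lower. In low cells ZEB1 had 7.57, 8.42 and 8.34 CPM and in high cells 21.0, 24.6 and 30.3 CPM. TWIST1 had 67.8, 62.8 and 63.1 CPM in low and 242, 222 and 244 CPM in high cells. PRRX1 had 51.2, 50.6 and 56.4 CPM in low and 257, 243 and 276 CPM in high cells. For all 3 the high libraries lie well apart from the low ones. TCF4 was at 1.19, 1.03 and 1.29 CPM in low and 7.60, 6.70 and 6.99 CPM in high cells. SNAI1 had 28.9, 33.0 and 31.7 CPM in low and 19.7, 18.3 and 19.4 CPM in high cells. SNAI2 had 111, 108 and 112 CPM in low and 127, 162 and 153 CPM in high cells. SNAI1 is again the member with the higher level in low cells. No group pair overlaps, but the share of all genes without overlap was not counted for this comparison. The log2 fold changes were 1.64 for ZEB1, 1.87 for TWIST1, 2.29 for PRRX1, 2.60 for TCF4, 0.41 for SNAI2 and 0.30 for ZEB2, and -0.71 for SNAI1. The call of ZEB2 in this comparison was lost when the 6 libraries with more than 16% of reads on no feature were left out (log2 fold change 0.28, adjusted p = 0.0993, the highest over 29 alternatives, whose lowest was 7.46e-06). That setting keeps 1 EPZ5676 high library, which is assumed to vary like the other groups.

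Levels can be compared between genes only per length. Exon lengths were taken from GENCODE 29. The annotation release behind the counts is not given, so these lengths may differ from the exons counted, and the order between genes is approximate. On the scale of CPM per kilobase of the gene's exons, counted once where they overlap, in DMSO high cells the order was TWIST1 (102), SNAI2 (41.2), PRRX1 (37.1), SNAI1 (11.5), ZEB2 (5.45), ZEB1 (3.90) and TCF4 (0.260). The order depends in part on the length used: per kilobase of the longest coding transcript PRRX1 (71.3) was above SNAI2 (57.5), and ZEB2 (14.3) above SNAI1 (11.5). In DMSO low cells TWIST1 (29.6 ± 1.23, SD, n = 3) and SNAI2 (28.5 ± 1.66) lay within each other's spread, and per kilobase of the longest coding transcript SNAI2 (39.8) was above TWIST1 (36.2). PRRX1 (7.40) and ZEB2 (4.43) came after SNAI1 (17.8).

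Ratios of counts within a library do not depend on scaling. The ratio of ZEB1 to ZEB2 counts was 0.0702 to 0.0802 in DMSO low cells and 0.225 to 0.261 in DMSO high cells, and 0.0724 to 0.0854 and 0.179 to 0.253 under EPZ5676. TWIST1 to ZEB2 ran from 0.540 to 0.549 in low and 1.51 to 1.53 in high cells under DMSO. The ranges of low and high cells do not overlap for either ratio.

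**Figure D3:**
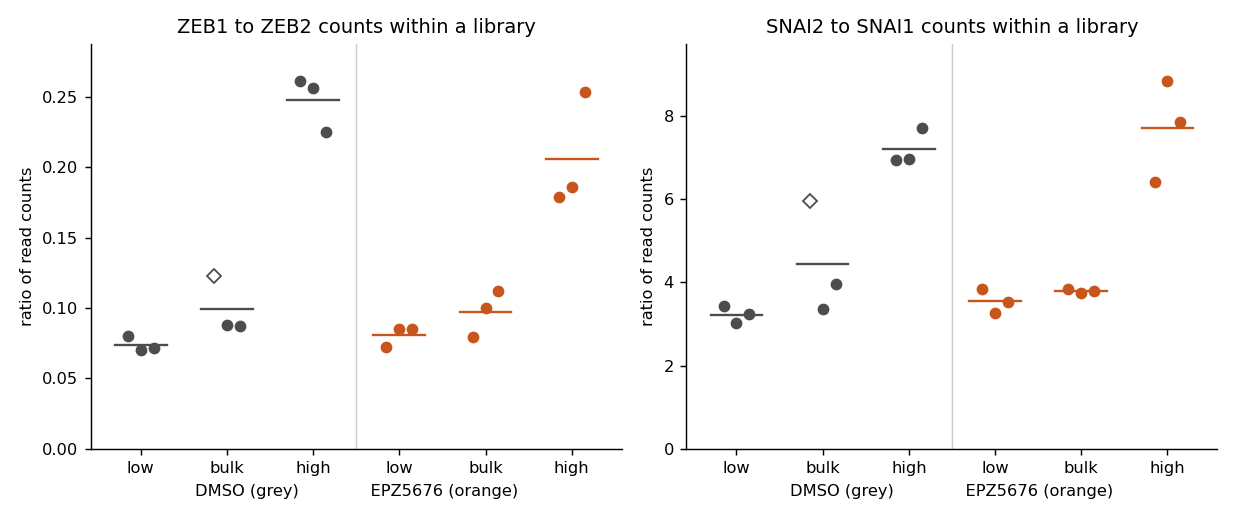
Ratio of read counts of ZEB1 to ZEB2 (left) and of SNAI2 to SNAI1 (right) in each library, by group; points are libraries, lines are means of 3, the open diamond is DMSO bulk replicate 1, and axes start at 0. Both ratios are higher in every high library than in every low or bulk library of the same treatment.

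EPZ5676 against DMSO within high cells asks whether DOT1L inhibition shifts the factors in the state where most of them are high. With all 18 libraries in the fit 0 of 7 members were called by edgeR and 0 by DESeq2, where 3.0% of all genes were called by edgeR, and 2 members had an unadjusted p under 0.05. ZEB1 had 36.9, 32.7 and 31.7 CPM under DMSO and 21.0, 24.6 and 30.3 CPM under EPZ5676, with a log2 fold change of -0.41 ± 0.16 (adjusted p = 0.181). All EPZ5676 libraries were below all DMSO libraries for ZEB1, although by little at the nearest pair. ZEB2 was -0.15 ± 0.07 (adjusted p = 0.283), with overlapping groups.

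Without DMSO bulk replicate 1 the shared spread was smaller, and 3 members were called in high cells, against 10.7% of all genes. ZEB1 fell by 0.41 ± 0.11 on the log2 scale (adjusted p = 0.00892), and over the alternatives its adjusted p ran from 0.00892 to 0.965. PRRX1 fell by 0.24 ± 0.06 (adjusted p = 0.00536, 0.00536 to 0.986 over the alternatives). TWIST1 rose by 0.18 ± 0.05 (adjusted p = 0.0197, 0.0189 to 0.976 over the alternatives), so these 3 members did not move in one direction. The libraries of the treatments did not overlap for these 3 members, and overlapped for ZEB2, SNAI1, SNAI2 and TCF4. Over all genes 24.8% did not overlap. These 3 were looked at because they were called, so the share is not a fair comparison for them. The values of SNAI1, SNAI2 and TCF4 were -0.01, 0.08 and -0.03. Leaving out the 6 libraries with more than 16% of reads on no feature keeps 1 EPZ5676 high library, and ZEB1 was then -0.19, PRRX1 -0.12 and TWIST1 0.27, none of them called. In these high cells the fibroblast markers summed to 603 to 743 CPM under EPZ5676 and 1076 to 1411 CPM under DMSO, with 1 of 7 tested higher and 0 lower, and 2 higher and 2 lower without DMSO bulk replicate 1. Most of the sum was COL1A1, with means of 433 CPM under EPZ5676 and 930 CPM under DMSO, not called with all libraries. PDGFRA, FAP and COL1A2 also had lower means under EPZ5676. LUM (52.7 against 31.7 CPM, called), DCN and COL3A1 had higher means, so the markers did not move in one direction. The melanocyte lineage genes summed to 1851 to 2024 against 1235 to 1448 CPM, with 2 of 8 higher, and 6 of 8 higher without that replicate. Their part in the values of the EMT factors was not tested.

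**Figure D4:**
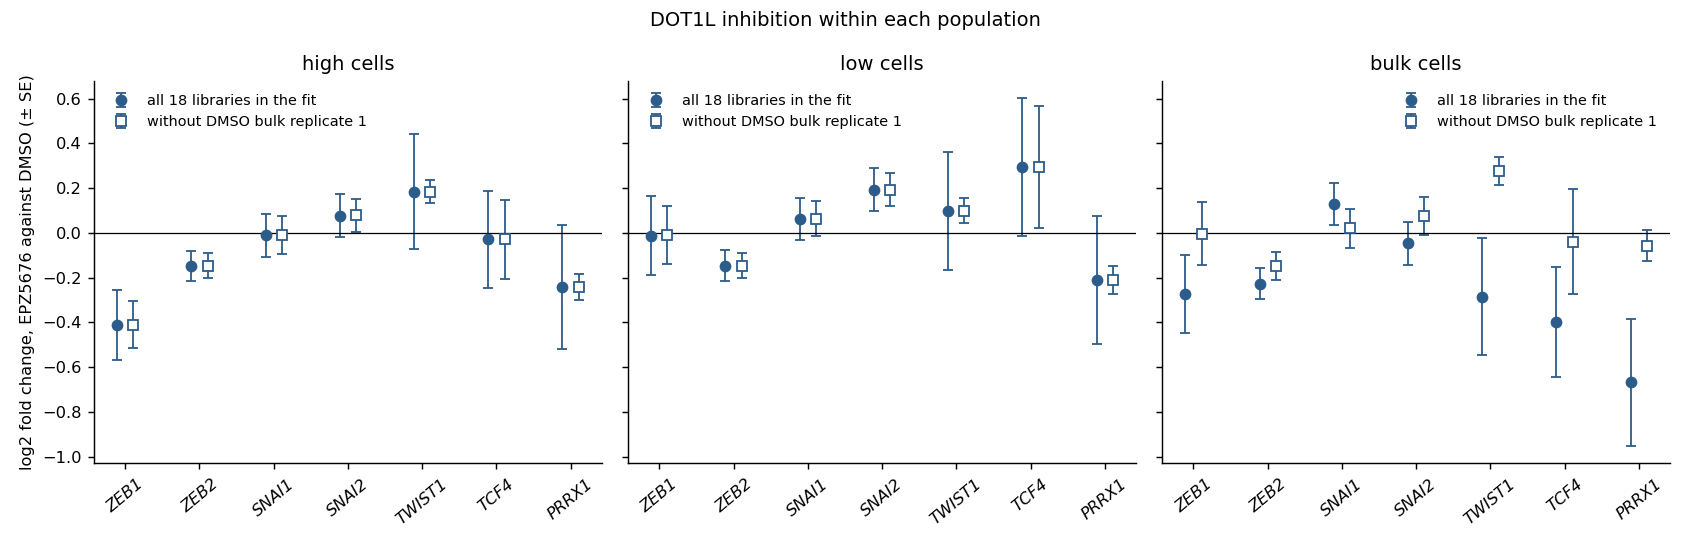
Log2 fold change of EPZ5676 against DMSO (± SE) in high, low and bulk cells, with all 18 libraries in the fit (filled circles) and without DMSO bulk replicate 1 (open squares). Leaving that library out narrows the error bars of TWIST1 and PRRX1 in every panel and moves TWIST1 in bulk cells from -0.28 to 0.28.

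In low cells 0 of 7 members were called by edgeR and 0 by DESeq2, where 1.04% of all genes were called by edgeR, and 1 member, ZEB2 at -0.15, had an unadjusted p under 0.05. Without DMSO bulk replicate 1, PRRX1 alone was called (5.15% of all genes), falling by 0.21 ± 0.06 (adjusted p = 0.0369, 0.0369 to 0.981 over the alternatives), with 62.4, 64.5 and 56.2 CPM under DMSO and 51.2, 50.6 and 56.4 CPM under EPZ5676. The highest EPZ5676 library lies just above the lowest DMSO library, so the groups overlap. SNAI2 was 0.19 ± 0.10 (adjusted p = 0.441) in low cells, with 103, 94.2 and 92.7 CPM under DMSO and 111, 108 and 112 CPM under EPZ5676. Its groups do not overlap, and it was called at 0.20 (adjusted p = 0.0262, 0.0262 to 0.807 over the alternatives) with only the groups compared in the fit. ZEB1 was -0.01 ± 0.18 in low cells. For the treatment in low and in bulk cells the share of all genes without overlap was not counted.

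In bulk cells 0 of 7 members were called by edgeR and 0 by DESeq2, where 0.728% of all genes were called by edgeR, and 2 members, ZEB2 at -0.23 and PRRX1 at -0.67, had an unadjusted p under 0.05. Without DMSO bulk replicate 1 PRRX1 was -0.06 and ZEB2 -0.15 ± 0.06 (adjusted p = 0.222, 0.0744 to 1.0 over the alternatives), and ZEB2's groups did not overlap with or without it. TWIST1 had 162, 66.2 and 66.1 CPM under DMSO and 82.4, 76.0 and 83.1 CPM under EPZ5676, so that the first DMSO library is above and the others below all EPZ5676 libraries. Without it TWIST1 was the 1 member called, among 2.93% of all genes, at a log2 fold change of 0.28 ± 0.06 (adjusted p = 0.00715, 0.00715 to 1.0 over the alternatives), in place of -0.28 ± 0.26.

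Whether the effect of EPZ5676 differed between high and low cells was tested as an interaction. Of the 7 members 0 were called by edgeR and 0 by DESeq2, 0 had an unadjusted p under 0.05, and 0.320% of all genes were called by edgeR. ZEB1 had the largest value, -0.40 ± 0.24 (adjusted p = 0.567), and without DMSO bulk replicate 1 -0.40 ± 0.17 (unadjusted p = 0.0227, adjusted p = 0.186, 0.168 to 0.997 over the alternatives), where 5.71% of all genes were called. The lower ZEB1 in EPZ5676 high cells is thus not shown to be particular to high cells.

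Bulk cells were compared with low cells to place the unsorted population. Under DMSO 1 of 7 members was called, among 1.09% of all genes: TCF4, with 4.87, 2.16 and 2.96 CPM in bulk cells, at a log2 fold change of 1.79 ± 0.27 (adjusted p = 0.00305). All bulk libraries were above the low libraries, and without DMSO bulk replicate 1 TCF4 was 1.44 (adjusted p = 0.00106) and PRRX1 was called as well at 0.27 (adjusted p = 0.0312), among 1.25% of all genes. Over the alternatives the adjusted p of TCF4 ran up to 0.560, with only the groups compared in the fit, and that of PRRX1 to 0.569. ZEB1, SNAI2, TWIST1 and PRRX1 had an unadjusted p under 0.05 with all libraries. Leaving out DMSO bulk replicate 2, or replicate 3 in its place, gave 4 calls: ZEB1, TWIST1, TCF4 and PRRX1. Both fits keep DMSO bulk replicate 1. The share of all genes called in those fits is not given here, so the calls are not read as particular to these members. Nor is the share of all genes given whose bulk and low libraries do not overlap. ZEB1 had 15.8, 9.58 and 9.71 CPM in the DMSO bulk libraries and PRRX1 191, 72.8 and 74.3 CPM, with replicate 1 the highest for both.

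Under EPZ5676 0 of 7 members were called by edgeR and 0 by DESeq2 between bulk and low cells, where 0.00552% of all genes were called by edgeR, and TCF4 alone had an unadjusted p under 0.05, at 1.10 ± 0.28. Without DMSO bulk replicate 1, which is in neither group, 3 were called, among 2.64% of all genes. PRRX1 rose by 0.42 ± 0.06 (adjusted p = 2.06e-05), TWIST1 by 0.32 ± 0.06 (adjusted p = 0.000349) and TCF4 by 1.10 ± 0.24 (adjusted p = 0.0048), each with adjusted p up to 1.0 over the alternatives. In all 3 the bulk libraries lay above the low libraries and below the high libraries. These 3 were looked at because they were called, and the share of all genes in that order was not counted.

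Genes around the members were taken from lists given by name, and their counts are for high against low cells under DMSO unless stated. In that comparison 56.3% of all genes were called, 29.6% higher and 26.7% lower. List counts near these shares are not read as particular to a list. The share without DMSO bulk replicate 1 is not given for this comparison. Of 13 other EMT transcription factors 9 were tested, of which 5 were higher and 1 lower (median 1.00 against 0.03 over all genes). HMGA2, a chromatin protein upstream of SNAI and TWIST genes, rose by 1.63, FOXC1 by 1.06 and the E-protein TCF12 by 0.50. FOXC2 and SOX9 were at 0.0502 and 0.0150 CPM in low and at 16.2 and 6.44 CPM in high cells. Both were under the floor in low cells and passed the filter only through groups where they were higher. Their direction was thus set in advance, and the list's count and median include them. The ID proteins, which bind E-proteins without binding DNA, had 2 of 4 higher, ID1 by 1.47 and ID2 by 0.99, and 3 higher and 1 lower without DMSO bulk replicate 1.

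Of 10 corepressors used by ZEB and SNAI proteins, 4 were higher and 5 lower (median -0.13). KDM1A, the histone demethylase that SNAI1 recruits, fell by 0.68, CTBP2 by 0.49 and HDAC1 by 0.45, while CTBP1 rose by 0.40 and AJUBA, a SNAI partner, by 0.75. Of 7 tested genes for SNAI and TWIST protein stability, 4 were higher and 1 lower (median 0.18), where 56.3% of all genes were called in either direction. Among them FBXL14, a ubiquitin ligase adaptor, was up by 0.69. Of 13 upstream signals 9 were higher and 0 lower (median 0.42), among them TGFB1 at 1.97, its receptor TGFBR2 at 2.92 and the coactivator YAP1 at 0.58.

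Genes that these factors are known to act on moved in both directions. Of 13 tested mesenchymal genes 11 were higher and 1, SPARC, lower (median 3.88). Over all genes 29.6% were called higher and 26.7% lower in this comparison. VIM, an intermediate filament, rose by 0.64, CDH2 (N-cadherin) by 1.02 and FN1 (fibronectin) by 7.03. COL3A1 is also on this list, at 0.0499 CPM in low and 0.788 CPM in high cells. It was under the floor in low cells and passed the filter through groups where it was higher, so its direction was set in advance. Of 20 epithelial junction genes only 8 were tested, 3 higher and 2 lower (median 0.03), and 2 higher and 3 lower without DMSO bulk replicate 1. CDH1 (E-cadherin) fell by 3.36 from a level of 0.651 to 0.0524 CPM, so it was near 0 in both groups. Of 10 epithelial state regulators 3 were tested and 2 were lower. ESRP1, a splicing factor, fell by 2.28 and GRHL1 fell by 0.88.

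**Figure D5:**
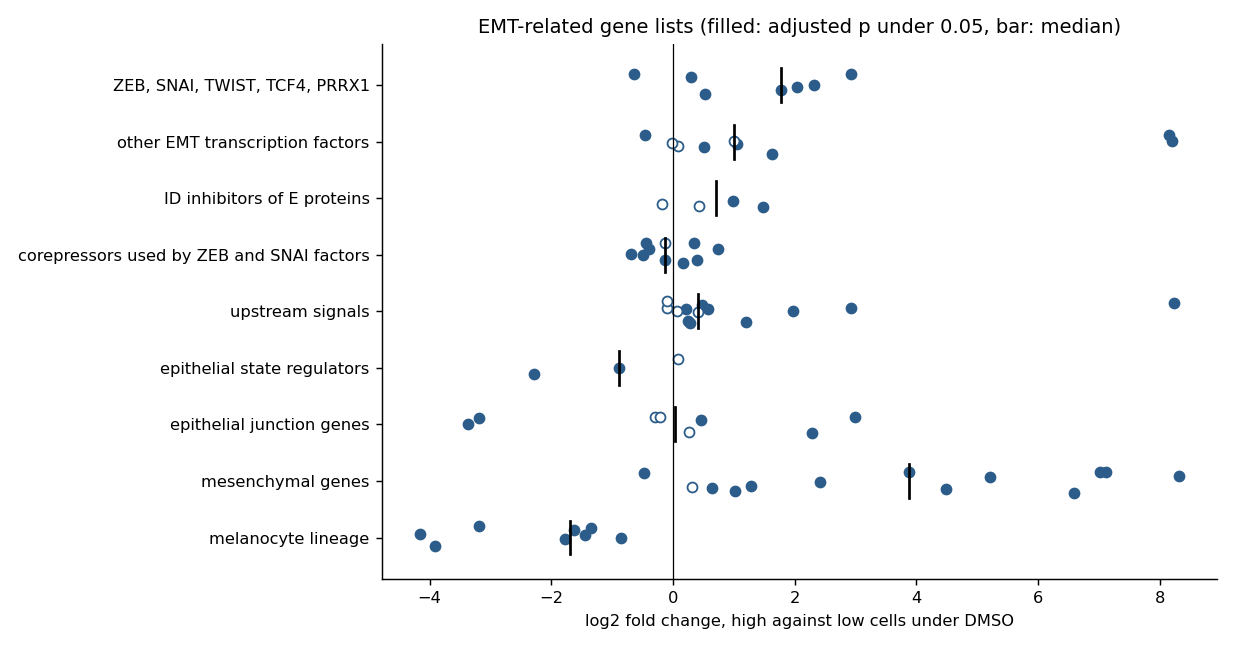
Log2 fold change of high against low cells under DMSO for the tested genes of each list, in rows; filled points have an adjusted p under 0.05, open points do not, and the bar is the median. The 13 mesenchymal genes have a median of 3.88, the 7 EMT factors 1.78 and the 10 corepressors -0.13.

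With all libraries in the fit, treatment calls in these EMT lists were few in each kind of cell. In high cells EPZ5676 raised ID3 by 0.86, ESRP1 by 0.81, CDH3 by 1.52, SPARC by 0.78 and the NOTCH ligand JAG1 by 0.45, and other genes of these lists were not called in that fit. CDH3 was at a low level there, with a mean of 0.333 CPM under DMSO and 0.948 CPM under EPZ5676. Without DMSO bulk replicate 1, in high cells, 3 of the 9 other EMT factors were lower, and the upstream signals had 3 of 13 higher and 5 lower. Calls rose for all genes as well, to 10.7% in that fit. In low cells ID3 rose by 0.98, CDH3 by 1.03 and SPARC by 0.29, and EZH2 fell by 0.23. In bulk cells CDH3 rose by 1.06 and SPARC by 0.34, while HMGA2 fell by 0.67, ID4 by 0.37 and EZH2 by 0.31. HMGA2 fell by 0.43 ± 0.06 in bulk cells without DMSO bulk replicate 1 (adjusted p = 4.08e-05, edgeR). ZEB1-AS1, ZEB2-AS1 and SNAI3-AS1, the antisense neighbours, had 0 of 3 called between high and low cells (edgeR, DMSO). The strand setting of the counting is not given in the sources used here, so reads of ZEB1 or ZEB2 and of their antisense partners could not be told apart where they overlap.

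Markers of other cells were measured beside the sort. Fibroblast markers, of which 6 of 7 tested were higher and 1 lower, summed to 72.4 to 75.5 CPM in DMSO low and 1076 to 1411 CPM in DMSO high cells, and to 97.7 to 100.3 and 603 to 743 CPM under EPZ5676. The sum in DMSO high cells was mostly COL1A1, with a mean of 930 CPM. LUM, the lower marker, had a mean of 67.8 CPM in DMSO low and 31.7 CPM in DMSO high cells. FAP and COL3A1 were under the floor in DMSO low cells (0.0816 and 0.0499 CPM). They passed the filter through groups where they were higher, so their direction was set in advance. All 8 melanocyte lineage genes were lower in DMSO high cells, with sums of 11341 to 11813 CPM in low and 1235 to 1448 CPM in high cells, and MITF, their master regulator, fell by 1.63. Their part in the results on the EMT factors was not tested. Leukocyte markers stayed at or under 3.12 CPM in sum, and 0 of 2 tested were called between DMSO high and low cells by edgeR, 0 with an unadjusted p under 0.05. The 1 keratinocyte marker tested, KRT10, rose by 0.43 in DMSO high cells. Of 6 endothelial markers 3 were tested. In DMSO high cells VWF rose by 2.14 and KDR by 2.20 on the log2 scale, and EGFL7 fell by 1.24. Their list summed to 23.2 to 26.8 CPM in DMSO high and 29.7 to 36.1 CPM in DMSO low cells, with PECAM1 at 0 in every group. Under EPZ5676 VWF was higher and EGFL7 lower in high cells, and KDR was not called.

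By Pearson's r of log2 CPM over the 18 libraries, among 10504 genes, the genes most like each member were IQSEC2, ADAMTS12 and KIF11 for ZEB1 (0.991 to 0.987) and JADE1, ELK3 and TRAM2 for PRRX1 (0.996 to 0.995). For TWIST1 they were HEG1, LMO7 and CADM1 (0.995), and for TCF4 BGN, PTPRF and FGFRL1 (0.983 to 0.981). ZEB2 was most like ZC3HAV1 (0.967), SNAI1 most like VPS53 (0.980) and SNAI2 most like ZNF532 (0.956). These values describe patterns over libraries that fall into sorted groups and share their depth and scaling, and no p is given.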

How the data were processed

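RNA selected for poly(A) tails was sequenced as paired ends, per the labels' protocols. The deposited table holds raw counts for each Ensembl gene and library. The authors used STAR, HTSeq and the hg19 build, per the submitters' processing notes; versions, the strand setting and the annotation release are not given in the sources used here. Of the 63677 genes, 11151 found no symbol in the name table or in GENCODE 29, and they held 0.922% of gene counts. Library sizes and tests exclude the 5 HTSeq summary lines. Depth was 13383741 to 26311674 gene counts, with 0 identical pairs among the 18 libraries.

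In R 4.3.3 with edgeR 4.0.16, filterByExpr kept 18121 genes. These were scaled by TMM factors, and a robust quasi-likelihood model took the 6 group means over every library. In each of the 8 comparisons p was adjusted by Benjamini-Hochberg over all genes, with a threshold of 0.05, and each SE came from the F statistic. The members and lists were chosen with earlier results of these data known. The members, NGFR, EGFR, DOT1L and MITF could always be named, and from each list up to 4 genes with the smallest p. FN1, FOXC2, CTBP1 and AJUBA were named after their values were seen. Some genes of the lists are not reported here by name. Other settings were scaling by RLE or by library size, dropping the filter or asking for 5 CPM in a group, DESeq2 1.42.0, fits of the compared groups alone, a replicate block, the no-feature share as a covariate, a limit of 16% on that share, and leaving out single libraries. A fit of the 12 sorted libraries, and the covariate without DMSO bulk replicate 1, were added after seeing the data. Promoter windows are the 250 bases before a RefSeq start, in a later build than the counts, with motifs matched on both strands. Likeness is Pearson's r of log2 CPM with a prior count of 2, over tested genes that passed a limit of 5 CPM on their mean level. The code was tested on simulated data. Figures were drawn with matplotlib 3.10.9 from tables made with pandas 2.3.3 (Python 3.11.15, numpy 2.4.6).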

Additional observations from a re-analysis of the deposited data

Results flagged for a closer look

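With all 18 libraries in the fit, SPARC, a matrix glycoprotein on the mesenchymal list, was the one gene of the EMT lists whose response to EPZ5676 differed between high and low cells by the interaction test, at 0.49 ± 0.07 (SE; adjusted p = 0.00227, edgeR). Its log2 fold change under EPZ5676 was 0.78 in high and 0.29 in low cells. Its level was 638 CPM in DMSO high and 890 CPM in DMSO low cells, and 1094 and 1088 CPM under EPZ5676 (means of 3 libraries). SPARC was also called without DMSO bulk replicate 1, at 0.49 ± 0.06. In that fit 5.71% of all genes were called, against 0.320% with all 18 libraries. Other genes of these lists were called in it too. They were 1 ID gene, 1 corepressor and 1 epithelial state regulator higher, 2 further mesenchymal genes lower, and 1 upstream signal higher and 3 lower.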

How the results depend on the processing

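The counts of 7 members called between high and low cells held in both treatments when each library was left out (7 to 7). The share of all genes called also changes between fits, and for most fits below it is not given. For bulk against low cells under EPZ5676 it was 0.00552% with all libraries and 2.64% without DMSO bulk replicate 1. The counts below are therefore not read as particular to the members. Leaving out each library gave 0 to 3 calls for EPZ5676 in high cells, 0 to 1 in low, 0 to 1 in bulk, 0 to 0 for the interaction, and for bulk against low cells 1 to 4 under DMSO and 0 to 3 under EPZ5676. With DMSO bulk replicate 1 left out and the no-feature share as covariate there were 3 calls in EPZ5676 high cells, 2 for bulk against low under DMSO and 3 under EPZ5676. With only the groups compared there were 2 in EPZ5676 high, 1 (SNAI2) in EPZ5676 low, 0 for bulk against low under DMSO and 3 under EPZ5676. Without a filter there were 1 in EPZ5676 high, 3 for bulk against low under DMSO and 1 under EPZ5676. The 12 sorted libraries alone gave 3 in EPZ5676 high, and leaving out libraries over 16% no-feature reads gave 0 for bulk against low under DMSO. The replicate numbers gave no clear pairing of the samples: 8 of 45 same-number pairs had r over 0.1, and the median was -0.0053. Such correlations cannot exclude that samples of one number shared a culture. With the replicate number as a block the number of genes called between high and low cells under DMSO was 10117 against 10199. The block changed no call of a member, and ZEB1 in EPZ5676 high cells was -0.41. Signs also changed for members that were not called in the comparison, TWIST1 in bulk cells alone being called on the other side; the causes were not tested. Scaled by library size, sign changes gave SNAI1 0.011 for EPZ5676 in high cells, ZEB1 0.0024 for EPZ5676 in low cells, ZEB2 0.0070 for the interaction and SNAI2 -0.0061 for bulk against low cells under EPZ5676. With no filter, sign changes gave SNAI1 0.017 for EPZ5676 in high cells and ZEB2 0.041 and PRRX1 0.011 for the interaction. Without libraries over 16% no-feature reads, sign changes gave SNAI1 0.032 for EPZ5676 in high cells, ZEB1 0.032 for EPZ5676 in low cells, ZEB2 0.020, SNAI2 0.016 and PRRX1 0.073 for the interaction and SNAI2 -0.031 for bulk against low cells under EPZ5676. With the no-feature covariate, sign changes gave ZEB1 0.016 for EPZ5676 in low cells, ZEB2 0.011 for the interaction and SNAI2 -0.027 for bulk against low cells under EPZ5676. With that covariate and without DMSO bulk replicate 1, sign changes gave ZEB1 0.021 for EPZ5676 in low cells, ZEB1 0.074, SNAI2 0.017, TWIST1 0.23 and TCF4 0.040 for EPZ5676 in bulk cells, ZEB2 0.013 for the interaction, ZEB2 -0.0080 for bulk against low cells under DMSO and SNAI2 -0.029 for bulk against low cells under EPZ5676. At 5 CPM in a group, sign changes gave ZEB1 0.0018 for EPZ5676 in low cells. In DESeq2, sign changes gave ZEB2 0.0019 for the interaction. With RLE factors, sign changes gave ZEB2 0.00076 for the interaction. With each library left out in turn, SNAI1 ran from -0.070 to 0.035 for EPZ5676 in high cells and TCF4 ran from -0.13 to 0.16 for EPZ5676 in high cells. SNAI2 ran from -0.0019 to 0.17 for EPZ5676 in high cells and ZEB1 ran from -0.078 to 0.080 for EPZ5676 in low cells. SNAI2 ran from -0.12 to 0.076 for EPZ5676 in bulk cells and TWIST1 ran from -0.50 to 0.28 for EPZ5676 in bulk cells. ZEB2 ran from -0.054 to 0.039 for the interaction and PRRX1 ran from -0.080 to 0.026 for the interaction. ZEB2 ran from -0.0085 to 0.11 for bulk against low cells under DMSO and ZEB2 ran from -0.043 to 0.016 for bulk against low cells under EPZ5676. SNAI2 ran from -0.013 to 0.028 for bulk against low cells under EPZ5676.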
